A study of Rattus norvegicus with 6 samples.

Results

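Expression of 9 genes that encode regulators of the neural plate and the head ectoderm was described in heart primordia of rat embryos at the time of the first heartbeat. The members were Otx2, Lmx1a, Mab21l1, Mab21l2, Pax3, Pax6, Six3, Zic1 and Zic2, which are 9 of the 17441 genes named on the array. They were chosen by name, and every array probe that carried one of these names was used, 13 probes in all. Lmx1a and Mab21l1 were chosen by their falls between the groups in these same arrays, so their values are a description without a test. The samples were heart primordia of embryonic day 10 from the Wister rat (the spelling of the labels), with 3 biological replicates before heartbeat initiation (pre-heartbeat) and 3 after it (post-heartbeat), and the labels name no transgene or treatment for either group. The groups were set by the shape of the primordium and the somites of the embryo, and according to the methods the first and second heart fields were not separated. The labels do not say how many embryos were in a sample.

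The neural plate is the thickened ectoderm of the early embryo that folds into the brain and spinal cord, and the head ectoderm around it forms the placodes and the epidermis. At the head fold stage this tissue lies next to the heart-forming mesoderm. Otx2 is a homeodomain factor of the forebrain and midbrain, Six3 and Pax6 act in the anterior neural plate and the eye, and Pax3, Zic1 and Zic2 act in the dorsal neural plate, its border and the neural crest. Lmx1a patterns the roof plate and the ventral midbrain, and Mab21l1 and Mab21l2 are needed for the eye. Several of these genes are also known outside the neural plate, such as Otx2 in the anterior endoderm and Pax3 in the somites.

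The 60-base probes that measured these genes are shown because the results differed between probes of the same gene. They are given as deposited with the array, on the rn4 genome, with the exon or UTR position not analysed here. The Otx2 probe lies at chr15:24623454-24623513 on the minus strand, the brighter Lmx1a probe at chr13:83498450-83498509 on the plus strand, and the brighter Mab21l1 probe at chr2:145007615-145007674 on the plus strand. The brighter probe of Mab21l2 lies at chr2:178523624-178523683 on the minus strand, and the Pax3 probes lie on the minus strand at chr9:77477823-77477882 and chr9:77572117-77572176. For Otx2 and Lmx1a the first 30 bases are printed and for the brighter Pax3 probe the last 30, and capitals mark a stop codon that ends the reading frame in the Mab21l1 and Pax6 probes and an unbroken run of GT in the Pax3 probe.
Otx2, first 30 bases: aggcgtgatctgatgttttagccaatcttt
Lmx1a, brighter probe, first 30 bases: cagagatccttaattctactctctaatgat
Mab21l1, brighter probe: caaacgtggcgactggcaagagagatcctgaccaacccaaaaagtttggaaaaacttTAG
Mab21l2, brighter probe: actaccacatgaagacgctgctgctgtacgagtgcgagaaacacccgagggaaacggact
Pax3, brighter probe, last 30 bases: ttccatGTGTGTGTGTGTGTGTGTGTGTGT
Pax3, dimmer probe: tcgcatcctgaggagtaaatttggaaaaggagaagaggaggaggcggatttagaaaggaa
Pax6: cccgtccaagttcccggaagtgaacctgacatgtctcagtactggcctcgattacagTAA

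Each signal is a log2 value from which the 75th percentile of its array was subtracted, so signals compare the same probe between arrays and not a probe with another probe. A probe was well above background on an array if Feature Extraction had marked at least a share of 0.5 of its spots so, and it was tested if this held on all 3 arrays of either group. Arrays came from 2 separately scanned slides. Slide 1 held the post-heartbeat replicates 1 and 2 with pre-heartbeat replicate 1, and slide 2 held the other arrays. The slides differed at a limma adjusted p under 0.05 for 3148 of 19297 tested probes. Therefore, differences are also given within each slide and with the slide as a block. Defining genes of the labelled tissue were detected, as all 13 genes of the heart list were well above background on all 6 arrays. In tissue samples, fewer cells of a type and less RNA per cell cannot be told apart.

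Of the 9 members, 4 (Otx2, Mab21l2, Pax3 and Zic2) were well above background on all 6 arrays. For Lmx1a and Mab21l1, every pre-heartbeat array passed this limit, but only 1 post-heartbeat array did so for Lmx1a and 0 for Mab21l1. Pax6 was above background on 1 array, and Six3 and Zic1 on 0 arrays. Thus 6 members were tested, and Otx2 was lower after heartbeat initiation, while Mab21l2, Pax3 and Zic2 did not pass the test in either direction.

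**Figure D1:**
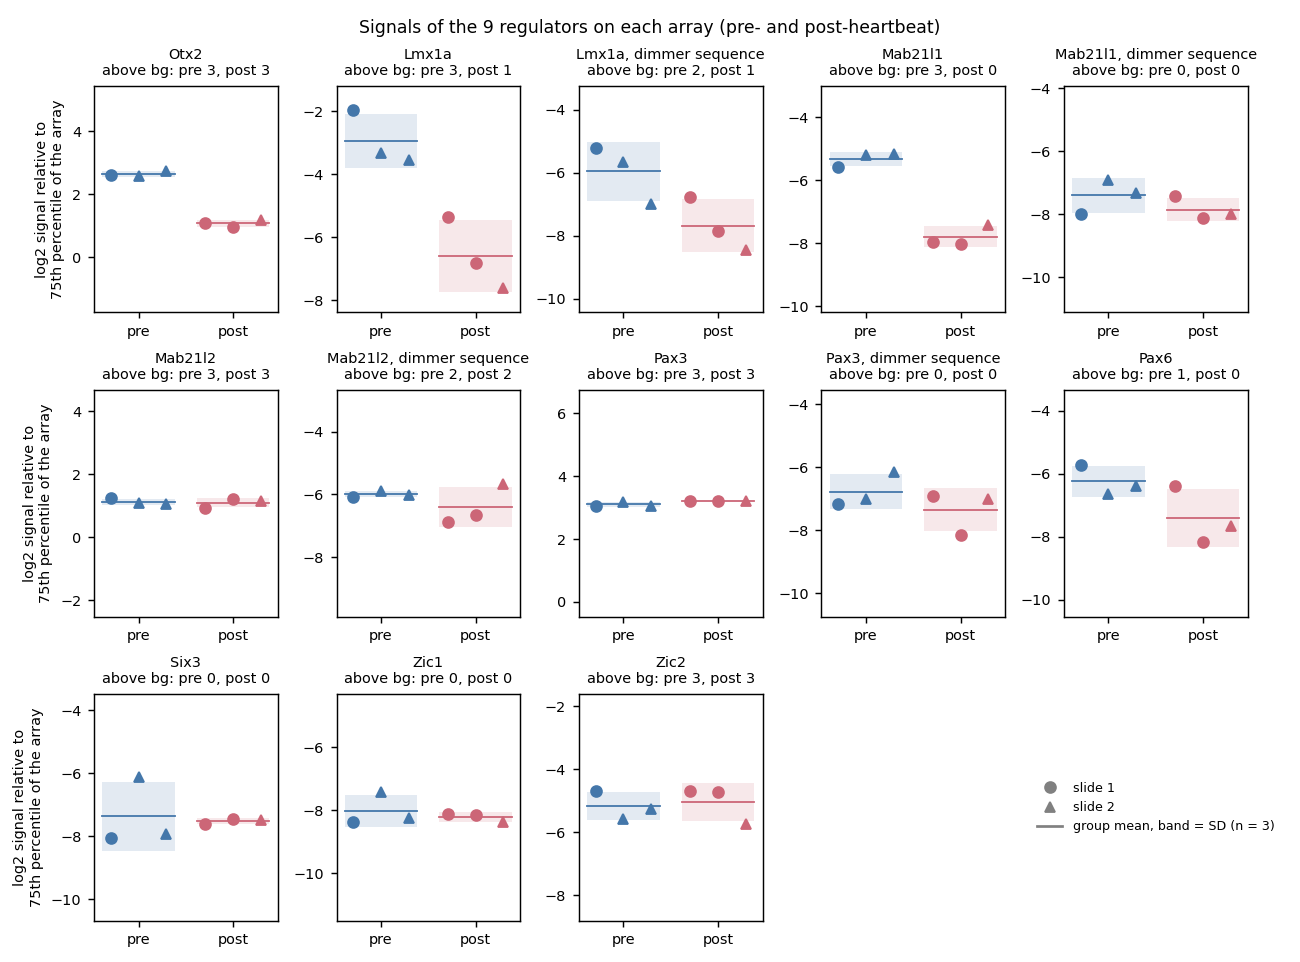
Signal of each probe of the 9 regulators on each array, as log2 after the 75th percentile of the array was subtracted, with pre-heartbeat arrays in blue and post-heartbeat arrays in red. Circles are slide 1, triangles slide 2, lines the group means and bands the SD (n = 3), all panels span the same log2 range, and the title counts the arrays well above background (bg). The signal of Otx2 was between 2.57 and 2.73 before and between 0.96 and 1.19 after heartbeat initiation, and the brighter probe of Pax3 was between 3.05 and 3.22 on every array.

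The signal of Otx2 was 2.61, 2.57 and 2.73 before and 1.09, 0.96 and 1.19 after heartbeat initiation. All post-heartbeat arrays were below all pre-heartbeat arrays. The mean fell from 2.64 ± 0.086 to 1.08 ± 0.11 (SD, n = 3), a log2 difference of -1.56 (SE 0.14, 95% confidence interval -1.88 to -1.23) or 2.95-fold lower. The fall passed the test across all probes (limma adjusted p = 0.0199), and the exact permutation p was 0.1, which is the smallest that 3 arrays against 3 allow. Both slides showed it, with a difference of -1.58 on slide 1 and -1.47 on slide 2. With the slide as a block the log2 difference was -1.52 (SE 0.14), and the limma adjusted p was 0.00566. The 2 spots of the probe differed by a median SD of 0.036 on an array. Before the shift to the 75th percentile, the processed signal of Otx2 was 10293, 6808 and 9852 intensity units before and 2699, 2742 and 3873 units after heartbeat initiation. The groups were therefore also apart in the unshifted signal. With 1 array left out in turn the difference stayed between -1.61 and -1.50 but no longer passed the test on leaving out any of the 6 arrays, with limma adjusted p between 0.0560 and 0.207.

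Otx1 is the closest paralog of Otx2 and is known in the same regions of the brain. Its signal was 1.37, 0.70 and 0.60 before and 1.48, 1.48 and 0.71 after heartbeat initiation. The groups overlapped, and the log2 difference of 0.33 (SE 0.29) did not pass the test (limma adjusted p = 0.866).

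The brighter Lmx1a probe gave signals of -1.96, -3.34 and -3.54 on the pre-heartbeat arrays and -5.37, -6.82 and -7.62 on the post-heartbeat arrays. These correspond to processed signals of 435, 113 and 128 intensity units before and 30.7, 12.5 and 8.65 units after heartbeat initiation. The groups did not overlap, the highest array of each group was on slide 1, and the log2 difference was -3.66. It was -4.13 within slide 1 and -4.18 within slide 2. Only 1 of the 6 post-heartbeat spots was well above background, so the size depends on how background is treated, and with normexp background correction the difference was -1.67. A second Lmx1a probe, 1697 bases away, gave -5.23, -5.66 and -7.00 before and -6.78, -7.84 and -8.45 after heartbeat initiation. It was above background on 2 pre-heartbeat and 1 post-heartbeat arrays and was not tested. Its groups overlapped, but its difference was -2.09 within slide 1 and -2.12 within slide 2. The paralog Lmx1b was well above background on all 6 arrays and had a log2 difference of 0.16 (SE 0.15, limma adjusted p = 0.866).

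The brighter Mab21l1 probe, of 1 spot per array, gave -5.58, -5.21 and -5.18 before and -7.97, -8.02 and -7.42 after heartbeat initiation. In processed signal this was 35.3, 30.9 and 40.9 intensity units against 5.05, 5.45 and 9.95 units. All post-heartbeat arrays were below all pre-heartbeat arrays, and none of them was well above background. The size of the fall was therefore not settled. With the post-heartbeat level raised to the lowest detected signal of each array, on average -7.21, Mab21l1 was 3.70-fold lower in the processed signal. This is not a lower bound, because probes that were not well above background could be brighter. Zic5, a paralog of Zic1 and Zic2, was well above background on no post-heartbeat array, yet its mean there was -6.71. The size also depended on the background correction, as the difference of -2.48 became -0.50 with normexp. On 2 arrays the value of this probe was a surrogate set by Feature Extraction. The other Mab21l1 probe begins 174 bases further on and was well above background on 0 of 6 arrays.

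Mab21l2, the paralog of Mab21l1, was measured by a probe that was well above background on every array. Whether the probes of Mab21l1 and Mab21l2 also match the transcript of the other gene was not tested. Its signal was 1.23, 1.07 and 1.04 before and 0.92, 1.22 and 1.14 after heartbeat initiation. The groups overlapped, and the log2 difference was -0.020 (SE 0.15, 95% confidence interval -0.37 to 0.33, limma adjusted p = 0.972). The dimmer Mab21l2 probe, 911 bases away, gave -6.09, -5.90 and -6.00 before and -6.89, -6.65 and -5.67 after heartbeat initiation, and its groups overlapped (exact permutation p = 0.4).

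The brighter Pax3 probe gave 3.05, 3.19 and 3.05 before and 3.22, 3.21 and 3.22 after heartbeat initiation. The post-heartbeat arrays were slightly above the pre-heartbeat arrays, but the log2 difference of 0.12 (SE 0.13, 95% confidence interval -0.18 to 0.42) did not pass the test (limma adjusted p = 0.866). The second Pax3 probe, 94294 bases away, was well above background on 0 arrays. The sequence of the brighter probe ends in the run of 24 bases of GT shown above. Of the 9 array sequences with such a run of 18 bases or more, a length chosen after the sequences were seen, 9 were well above background on all 6 arrays, beside 60.1% of all 30367 sequences, and their log2 differences ranged from 0.0052 for a probe without a gene name to 0.19 for Tcf15, a somite factor. The part of the run in the Pax3 signal was not tested.

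Zic2 had signals of -4.71, -5.57 and -5.26 before and -4.68, -4.72 and -5.75 after heartbeat initiation. The groups overlapped, and the log2 difference was 0.13 (SE 0.35, 95% confidence interval -0.70 to 0.95, limma adjusted p = 0.921). The direction was not settled, as the difference was -0.17 with the slide as a block. Pax6 gave -5.71, -6.63 and -6.40 before and -6.38, -8.17 and -7.67 after heartbeat initiation and was well above background on pre-heartbeat replicate 1 alone (exact permutation p = 0.3). Six3 and Zic1 gave processed signals of at most 16.5 and 6.62 intensity units, respectively, none of them well above background. On these arrays a change of Pax6, Six3 or Zic1 could not be measured. Of the paralogs, Crx, Mab21l3, Pax7, Pax4, Six6 and Zic4 were not well above background on any array, whereas Zic5 was so on 2 arrays and was not tested.

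Among the members tested, Otx2 fell past the limma threshold (adjusted p under 0.05), as was the case for 0.0341% of all 11725 genes (4 genes, among them Mab21l1, Cdhr1 and Dpp4). In the slide-block fit 0.588% of all genes were lower and 1.56% were higher, and Otx2 was again lower. By the selection rule of the methods, which asks for 1.5 fold and for a p under 0.05 before adjustment, 1.22% of all genes were lower, with Otx2 among them. All post-heartbeat arrays were below all pre-heartbeat arrays for 7.05% of all genes, again including Otx2. Lmx1a and Mab21l1 were chosen by their falls and entered the fit through the pre-heartbeat arrays alone, so their calls (both in the selection, both in the slide-block fit and Mab21l1 without a block) were set by that choice and nothing is read from them. Otx2 was not chosen for its fall, but its place among the members was also set with results of these arrays known. The median log2 difference of Otx2, Mab21l2, Pax3 and Zic2 was 0.048, beside -0.020 over all tested genes, and its sign was not settled, as the slide-block fit gave -0.10.

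**Figure D2:**
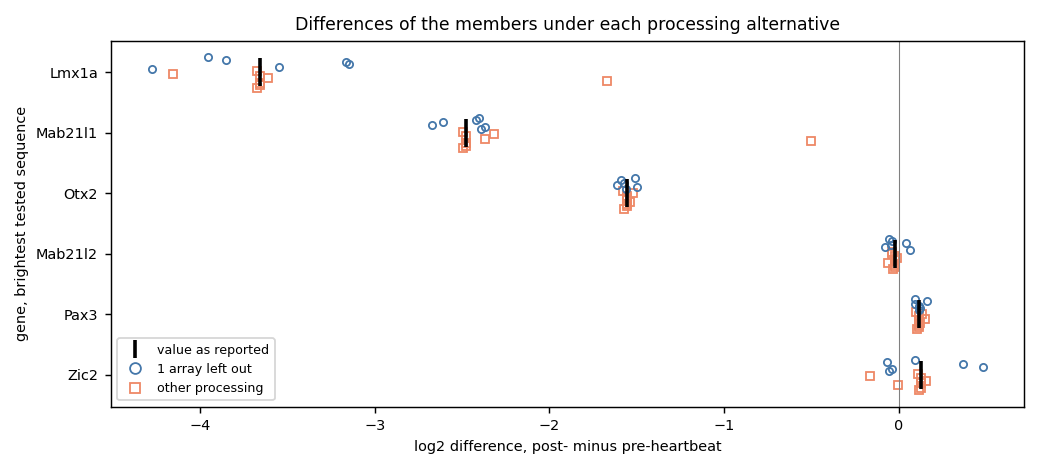
Log2 difference between post- and pre-heartbeat arrays for the 6 tested regulators, as reported (black bar), with 1 array left out (blue circles) and under other processing (orange squares). The values of Otx2 stayed between -1.61 and -1.50, whereas normexp background correction moved Lmx1a from -3.66 to -1.67 and Mab21l1 from -2.48 to -0.50.

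Genes known from the same tissues were described by lists of neural plate, forebrain and midbrain, neural plate border, placode and surface ectoderm genes and of the paralogs, 74 genes in all. Of these, 38 were tested, 4 (10.5%) were lower in the methods' selection and 0 were higher, beside 1.22% lower and 2.46% higher among all genes. The lists were chosen with earlier results of these data known, so the shares in this paragraph are a description only. With limma 0 passed an adjusted p under 0.05 in the lower direction without a block. In the slide-block fit 3 of the 38 (Dmbx1, Hesx1 and Snai2) were lower past the adjusted threshold, beside 0.588% of all genes. At an unadjusted p under 0.05, 11 of the 38 were lower and 1 was higher, beside 3.34% lower and 4.88% higher among all genes. The median log2 difference of the 38 genes was -0.28, beside -0.020 over all tested genes, but the lists differed in direction. The median was 0.30 for the 10 tested forebrain and midbrain genes, of which 6 had a higher mean, and 0.25 for the 2 tested paralogs. Otx1 is in both of these lists, and their medians were smaller in the slide-block fit, at 0.10 and 0.088. Without a block the median was -0.080 for the neural plate and neural tube, -0.40 for the border and -0.32 for the placode and surface ectoderm genes. In the slide-block fit it was -0.096, -0.49 and -0.38 for these lists.

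Hesx1, a repressor of the anterior neural plate, and Dmbx1, a homeodomain factor of the midbrain, were both lower in the selection. Hesx1 gave -1.71, -1.34 and -1.78 before and -3.03, -2.86 and -3.61 after heartbeat initiation, a log2 difference of -1.56 (SE 0.24, limma adjusted p = 0.0829, and 0.0170 in the slide-block fit). Dmbx1 gave 0.068, -0.59 and -0.15 before and -1.64, -2.06 and -1.97 after heartbeat initiation, a difference of -1.67 (SE 0.21, limma adjusted p = 0.0577, and 0.00993 in the slide-block fit). In order of the fall among 11725 genes, Dmbx1, Hesx1 and Otx2 had ranks 23, 27 and 28. The other 8 tested genes of the forebrain and midbrain list were not selected. Among them, Nkx2-1, a factor of the ventral forebrain and the foregut, had a log2 difference of 0.56 (SE 0.14, limma adjusted p = 0.288), with its groups not overlapping in the higher direction. The forebrain and eye genes Rax, Fezf1, Fezf2, Six6, Wnt8b and Barhl2 and the midbrain gene En2 were not well above background on any array.

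**Figure D3:**
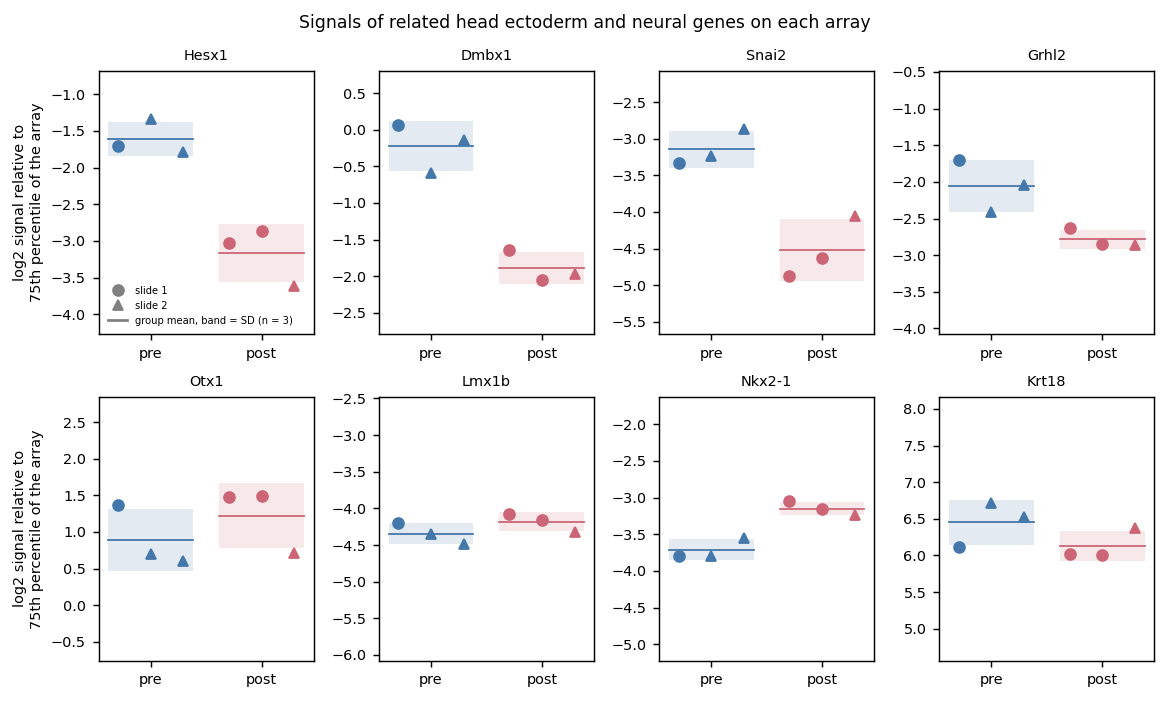
Signals of related genes on each array, as log2 after the 75th percentile of the array was subtracted, with pre-heartbeat arrays in blue, post-heartbeat arrays in red, circles for slide 1, triangles for slide 2, and group means with SD bands (n = 3). The brightest tested probes of Hesx1, Dmbx1, Snai2 and Grhl2 have all post-heartbeat arrays below all pre-heartbeat arrays, and those of the paralogs Otx1 and Lmx1b overlap between the groups.

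Snai2, which acts in neural crest and other cells that leave an epithelium, gave -3.33, -3.24 and -2.87 before and -4.88, -4.63 and -4.06 after heartbeat initiation. Its log2 difference was -1.37 (SE 0.24, limma adjusted p = 0.116, and 0.0216 in the slide-block fit). Grhl2, a factor of surface ectoderm and other epithelia, gave -1.70, -2.42 and -2.05 before and -2.63, -2.85 and -2.86 after heartbeat initiation. Its difference was -0.73 (SE 0.21, limma adjusted p = 0.355), but a second, dimmer Grhl2 probe gave 0.49 (SE 0.20, limma adjusted p = 0.694), so the probes of Grhl2 disagreed. The brightest of the 7 tested neural plate border genes was Crabp1, which binds retinoic acid, with a difference of -0.47 (SE 0.36, limma adjusted p = 0.866). All 4 genes in the selection had groups that did not overlap in their brightest tested probe. The selection itself favors such genes, so nothing is read from it. The second Grhl2 probe had groups apart in the higher direction, with -5.01, -5.31 and -5.70 before and -4.89, -4.74 and -4.93 after heartbeat initiation. With the mean of a gene's tested probes, 3 related genes were lower in the selection. In the neural plate and neural tube list, 6 of 19 genes were tested and 0 were selected, with Sox2, the brightest of them, at a difference of -0.21 (SE 0.42, limma adjusted p = 0.896).

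Marker lists of neighboring tissues are given beside the fall of Otx2. Of the 15 tested placode and surface ectoderm genes, 12 had a lower mean after heartbeat initiation, beside 53.2% of all genes, 5 had all post-heartbeat arrays below all pre-heartbeat arrays, beside 7.05%, and 1 was selected. The lowest difference in that list was that of Dlx5, a homeodomain factor of the placodes, at -1.86 (SE 0.71, limma adjusted p = 0.633), with groups that overlapped. The mean level of the 15 genes ranged from -1.18 to -0.65 before and from -1.58 to -1.06 after heartbeat initiation. The epithelial cadherin Cdh1, which is not particular to ectoderm, had a difference of -0.47 (SE 0.14, limma adjusted p = 0.372). Krt18, the brightest gene of that list, had -0.32 (SE 0.20, limma adjusted p = 0.866). The 6 tested neural plate and neural tube genes had mean levels between -2.53 and -2.13 before and between -2.58 and -2.26 after heartbeat initiation. Of the definitive endoderm genes, 4 of 6 were tested, 0 were selected in either direction, and their mean level was between -1.91 and -1.63 before and between -1.85 and -1.76 after heartbeat initiation. The brightest of them was Hhex, with a log2 difference of 0.10 (SE 0.18). The endoderm gene Shh was not well above background on any array.

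The mean level of the 5 endothelial genes was between -0.46 and -0.12 before and between -0.69 and -0.39 after heartbeat initiation, and that of the 5 yolk sac endoderm genes between 1.25 and 2.25 before and between 1.09 and 1.78 after it. In both lists 0 genes were selected. The brightest were Kdr, at -0.55 (SE 0.14), and Ttr, at -0.58 (SE 0.17). Each had all post-heartbeat arrays below all pre-heartbeat arrays, beside 7.05% of all genes. A lower mean was found for 5 of 5 endothelial, 4 of 5 yolk sac endoderm and 3 of 4 definitive endoderm genes, beside 53.2% of all genes. It was found for 3 of 6 neural plate and neural tube, 2 of 13 heart and 0 of 4 paraxial mesoderm genes. Some directions were not settled, as the slide-block fit reversed genes of the endothelial, yolk sac endoderm, definitive endoderm and paraxial mesoderm lists. The 4 tested paraxial mesoderm genes had mean levels between -2.58 and -1.05 before and between -1.61 and -0.79 after heartbeat initiation, with 0 selected. The brightest of them, Tcf15, had a difference of 0.19 (SE 0.13), and its probe also holds a run of 24 bases of GT. For the 13 heart genes the mean level was between 1.66 and 2.02 before and between 2.17 and 2.24 after heartbeat initiation, and 2 genes, the myosin heavy chains Myh6 (0.92, SE 0.23) and Myh7 (1.11, SE 0.19), were selected as higher. The brightest heart gene, Actc1, had a difference of 0.41 (SE 0.24). The part of the tissue makeup of the samples in the lower signal of Otx2, Hesx1 and Dmbx1 was not tested.

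**Figure D4:**
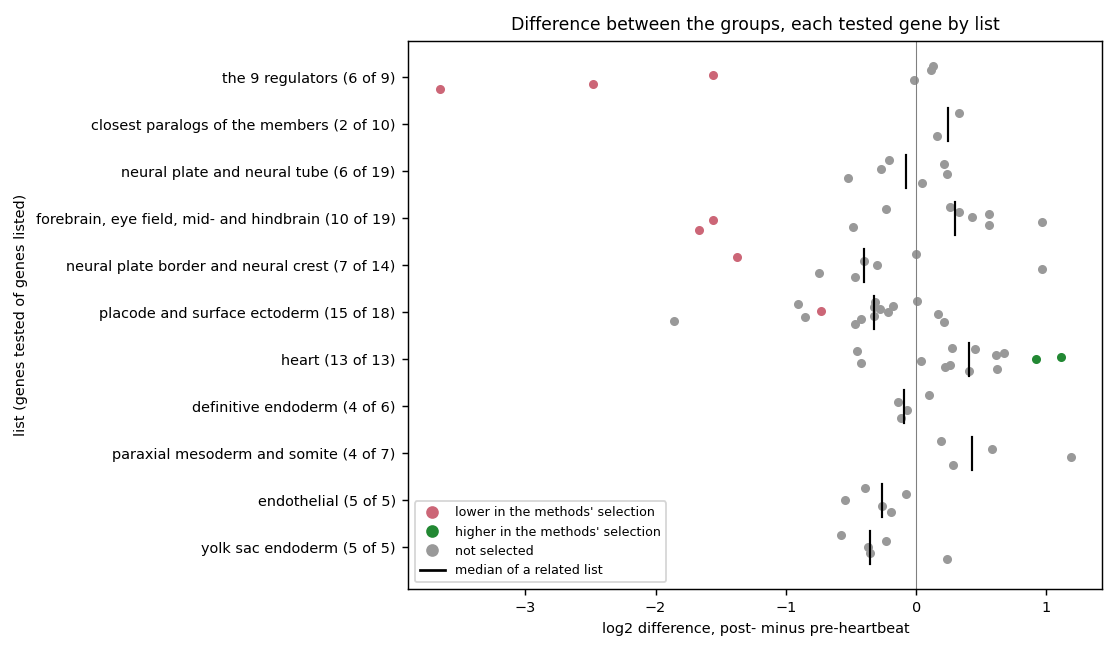
Log2 difference between post- and pre-heartbeat arrays for each tested gene of the 9 regulators and of the related and marker lists, with the number tested of the number listed beside each name. Red points are lower and green points higher in the methods' selection, gray points are not selected, and black lines are medians of the related and marker lists. The selected falls are in the regulators and in the forebrain and midbrain, border and placode lists, and the selected rises are Myh6 and Myh7. Among the regulators, Lmx1a and Mab21l1 were chosen by their falls, so nothing is read from their red points.

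Otx2 is known to bind the motif TAATCC, so the RefSeq promoters (GRCr8, from 250 bases before to 50 bases after the gene start) of the 9 members and of Hesx1, Dmbx1, Snai2 and Grhl2 were searched for its letters on both strands. This search was chosen after the values had been seen. Of the 13 genes, 8 had an entry in the table and 2 of them held the motif, beside 7.17% of all 33469 promoters. The first base of the match lies 130 bases before the start of Mab21l1 and 27 bases before that of Dmbx1. The stretches around them, at chr2:142093461-142093520 on the plus strand for Mab21l1 and chr5:134639782-134639841 on the minus strand for Dmbx1, are printed 5′ to 3′ with the match in capitals.
Mab21l1: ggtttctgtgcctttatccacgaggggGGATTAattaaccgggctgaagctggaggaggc
Dmbx1: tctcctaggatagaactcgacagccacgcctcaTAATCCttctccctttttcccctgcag
A match of letters is a description of the sequence and not a binding site.

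Genes with the most similar pattern were found from the mean of Otx2, Mab21l2, Pax3 and Zic2 on each array, with each gene centered first. This mean was 0.29, 0.065 and 0.14 before and -0.11, -0.085 and -0.30 after heartbeat initiation, and its groups did not overlap. That separation came from Otx2, since the mean of Mab21l2, Pax3 and Zic2 alone was 0.14, -0.15 and -0.10 before and 0.10, 0.19 and -0.18 after heartbeat initiation, with groups that overlapped. The highest Pearson correlations over the 6 arrays, which share these arrays and their normalization, were those of Ezr (0.991), Sec14l2 (0.987), Nkx2-8 (0.987), Slc22a18 (0.987) and Srpx (0.982). Ezr encodes ezrin, which links the membrane to actin in epithelia, and its log2 difference was -0.17. Nkx2-8 is a homeodomain factor known in the foregut and ventral neural tube, and its difference was -0.84.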

How the data were processed

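RNA of each heart primordium sample was labeled with Cy3 and hybridized by the authors to a single-color Agilent G3 rat array, 1 array per sample. The processed signals deposited for each spot are intensity values that Agilent Feature Extraction 10.7.3.1 had corrected for background, and 0 spots were saturated. For some dim spots it had used a surrogate value in place of the corrected signal. Such a spot occurred on 1 array for the brighter Lmx1a probe, 2 for the brighter Mab21l1 probe, 4 for Six3 and 6 for Zic1, and for further dim probes. The authors also deposited linear ratio values, made in GeneSpring with a shift to the 75th percentile and a baseline transformation, which were used as an alternative. Here, control spots and spots marked as outliers were left out, log2 signals less the 75th percentile of the array (between 1146 and 1702 intensity units) were averaged over the spots of a probe, and 19297 of 30367 probes were tested. Of these 30367 probes 21047 had a gene name, and 18006 matched RefSeq by accession. Each gene was represented by its brightest tested probe, with further probes not used in the counts.

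Groups were compared with limma 3.58.1 in R 4.3.3 without a block, with Benjamini-Hochberg adjustment over all tested probes and a threshold of 0.05, and single genes by a two-sided exact permutation test (SciPy 1.17.1). The selection of the methods was applied in both directions, as the Tukey HSD test with 2 groups equals the pooled comparison. The procedure was run on simulated data with independent noise and no difference between slides. That run therefore does not cover the slide difference of these arrays. The genes named are all members with all their probes, their closest paralogs, and from each list the genes past limma or in the selection, at most 5 in each direction, with the brightest gene. The 5 genes with the most similar pattern were added. Members and lists were chosen with earlier results of these data known. Cdh1, Dlx5, Nkx2-1 and Shh were named after their values were seen. As alternatives, the slide or the replicate number entered as a block, and others were normexp with an offset of 50, quantile normalization, the percentile over detected probes, other filters, the ratios of the authors, a fold of 2, the mean of a gene's probes, and each array left out. Arrays have no read depth, and their number limits the precision.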

Additional observations from a re-analysis of the deposited data

How the results depend on the processing

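The log2 difference of Otx2 stayed between -1.61 and -1.50 under all 15 alternatives and passed the limma threshold under 8 of them, with adjusted p between 0.00511 and 0.207. With no filter on dim probes it was -1.56 with an SE of 0.16, beside 0.14 with the filter, and a limma adjusted p of 0.0872. More probes entered both that fit and its adjustment. With 1 array left out the difference ranged from -1.61 to -1.50. Counts of members include Lmx1a and Mab21l1, which were chosen by their falls, so only the calls of Otx2 are read. The number of members lower past the limma threshold was 0 with no filter and 0 with the methods' test after Benjamini-Hochberg adjustment. It was 1 with normexp and 1 with a filter on all 6 arrays, and between 0 and 1 with 1 array left out. In the methods' selection it was 1 with the filter on all 6 arrays, which drops Lmx1a and Mab21l1, and with 1 array left out 0 to 1 related genes were higher. Zic2 ranged from -0.069 to 0.48 with 1 array left out, and reversed to -0.0062 with normexp, -0.17 with the slide as a block, -0.057 without post-heartbeat replicate 1, -0.037 without post-heartbeat replicate 2 and -0.069 without pre-heartbeat replicate 2. Mab21l2 ranged from -0.082 to 0.065, and reversed to 0.065 without post-heartbeat replicate 1 and 0.037 without pre-heartbeat replicate 1. The median difference of Otx2, Mab21l2, Pax3 and Zic2 also changed sign, with -0.034 under normexp, -0.10 with the slide as a block, -0.060 without post-heartbeat replicate 2 and -0.054 without pre-heartbeat replicate 2. The cause was not tested. Whether the replicate numbers pair the samples was not settled. The deviations of same-numbered samples correlated at 0.65, -0.28 and 0.49. Those with numbers 1 and 3 shared a slide and those with number 2 did not, so pairing and slide cannot be told apart. With the replicate block Otx2 was at -1.56 (limma adjusted p = 0.0154). The count of members lower past the threshold was 3 there, with Lmx1a and Mab21l1 in it, from which nothing is read. With every spot of a probe required to be well above background, which was chosen after seeing the data, Zic2 was no longer tested.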
